A study of Mus musculus with 16 samples.

Results

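Whether dietary methionine altered the response of the small intestine to ionizing radiation was examined as the interaction of diet and radiation dose. It is the log2 change from 0 to 8.5 Gy on the supplemented diet minus the log2 change from 0 to 8.5 Gy on the adequate diet. A negative value means that a gene was lower after irradiation, relative to its unirradiated level, on the supplemented diet than on the adequate diet. All 16 of the 16 libraries of the study enter this contrast. The RNA came from proximal jejunum, and the mice were males of the inbred strain CBA/J, aged 8 weeks. The 4 groups of 4 libraries had a methionine adequate diet with 0 Gy, the adequate diet with 8.5 Gy of gamma radiation, a methionine supplemented diet (300%) with 0 Gy, and the supplemented diet with 8.5 Gy. The design text states 6 days, and whether these count feeding or time since exposure is not given there. No transgene or further treatment is named for any group. The labels do not state that each library comes from its own mouse, so p-values measure the spread between libraries.

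Methionine is an essential amino acid that cells convert to S-adenosylmethionine, the methyl donor for DNA, RNA and histone methylation and a precursor of polyamines and, through homocysteine, of cysteine and glutathione. The jejunal epithelium is renewed from stem cells at the crypt base. Ionizing radiation kills dividing crypt cells through DNA damage and the p53 pathway, and surviving crypts then regenerate the lining. Type I and type III interferons induce a set of antiviral genes through a transcription factor complex that binds the interferon-stimulated response element. Interferon gamma induces guanylate-binding proteins, immunity-related GTPases and antigen presentation genes.

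Library totals ran from 2.57 to 15.51 M estimated counts, and 3 libraries held fewer than 4 M. The smaller libraries were replicate 1 of the adequate 0 Gy group, replicate 2 of the adequate 8.5 Gy group and replicate 1 of the supplemented 8.5 Gy group. Replicate 4 of each irradiated group stood apart from its group. In the adequate 8.5 Gy group, Mki67, which marks dividing cells, measured 353 CPM (counts per 1 M counts, with library sizes scaled by TMM factors) in replicate 4 and 138 to 179 in the other 3 libraries. In the supplemented 8.5 Gy group, Khk, the first enzyme of fructose breakdown, measured 222 CPM in replicate 4 and 48.4 to 62.4 in the other 3. For many results that rest on these libraries, values without them are also given below. Markers of absorptive enterocytes (28 of 28), goblet cells (17 of 19) and Paneth cells (18 of 22) passed the filter on low counts, as did 16558 of all 37620 gene IDs. Markers of fibroblasts (17 of 17), smooth muscle (10 of 10) and exocrine pancreas (14 of 19) also passed, so passing does not test the jejunal label. In bulk tissue, fewer cells of a type and less RNA per cell cannot be told apart.

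No gene passed the test for the interaction at an adjusted p under 0.05 among 16558 genes tested with edgeR's quasi-likelihood test (0.0% called). The smallest adjusted p was 0.596, for Inhbb. At an unadjusted p under 0.05 there were 738 genes (4.46% of those tested), 420 with a negative value (2.54%) and 318 with a positive value (1.92%). DESeq2 called 2 genes and limma voom none, with 705 and 780 genes at an unadjusted p under 0.05. The DESeq2 calls were Trim30a, at -1.6 with an adjusted p of 0.0328, and the gene model Gm4070, at -1.79 with an adjusted p of 0.00612. Without replicate 4 of the supplemented 8.5 Gy group, edgeR called Usp18, which removes ISG15 from proteins, at -1.97 and Spats2l at -1.29, each with an adjusted p of 0.0351, and 1168 genes had an unadjusted p under 0.05. Without replicate 4 of both irradiated groups, no gene was called and 2145 genes had an unadjusted p under 0.05, or 12.8% of the 16770 tested. Of these, 1224 were negative and 921 positive. Leaving out only replicate 4 of the adequate 8.5 Gy group gave 530 negative and 540 positive genes. Leaving out only replicate 4 of the supplemented 8.5 Gy group gave 718 and 450. No value below is therefore described as a change of the radiation response with diet, and single genes are given with their unadjusted p.

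The precision of the contrast limits what could have been seen. The 95% interval of the interaction lay within 1 log2 unit of 0 on both sides for 10261 genes, 62% of those tested. Among the 14406 genes with a mean log2 CPM of at least 1, this held for 10224 (71%), and the median standard error (SE) was 0.268. A single radiation contrast had a median SE of 0.192 on the adequate diet and 0.187 on the supplemented diet.

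The radiation response itself was large on each diet, and the libraries behind the 2 responses are separate. On the adequate diet 1180 genes rose (7.13%) and 1090 fell (6.58%). On the supplemented diet 1329 rose (8.03%) and 1194 fell (7.21%). Among the called genes, 1335 were called on both diets, 58.8% of the adequate list and 52.9% of the supplemented list, and 1334 of them had the same direction. The exception was Cela2a, a pancreatic elastase, at -1.71 on the adequate and 1.85 on the supplemented diet. For 929 of the 1335 genes (69.6%), the interval of the interaction lay within 1 log2 unit of 0. This is near the 62% of all genes tested and the 71% of those with a mean log2 CPM of at least 1. Across the 14406 genes with a mean log2 CPM of at least 1, the 2 responses had a Pearson r of 0.746, given as a description, since genes are not independent replicates.

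**Figure D1:**
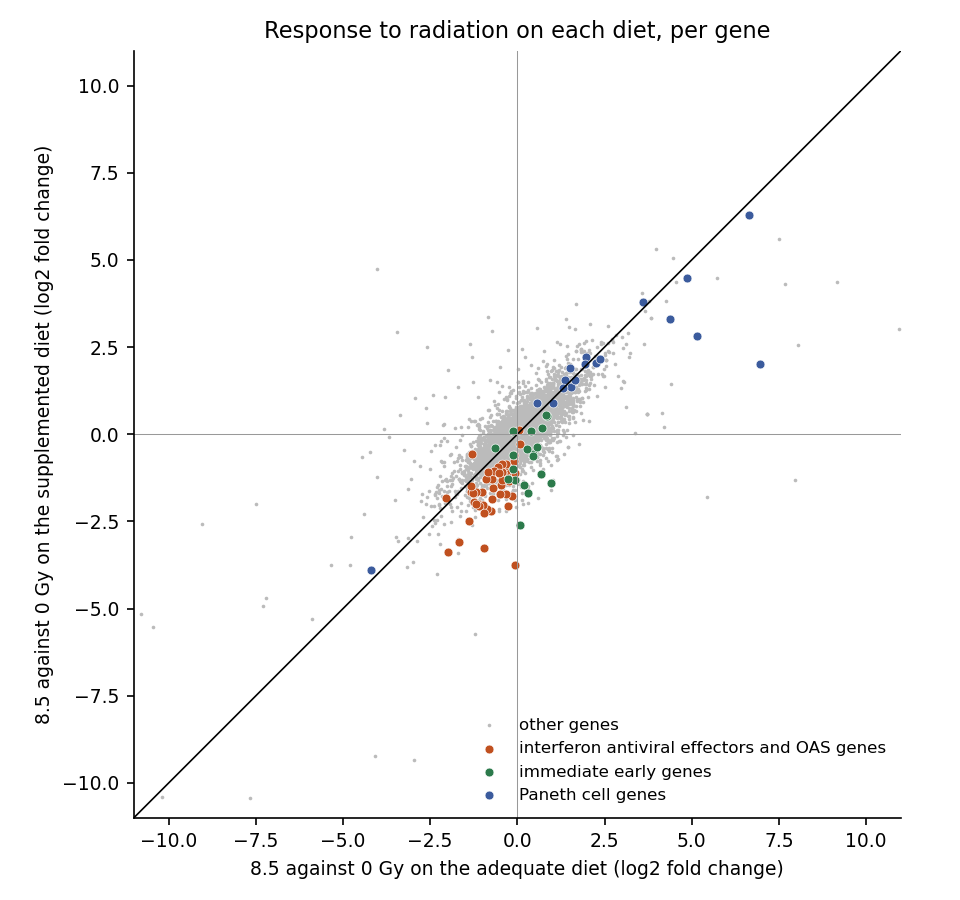
Log2 fold change from 0 to 8.5 Gy on the adequate diet (horizontal axis) and on the supplemented diet (vertical axis) for 14406 genes with a mean log2 CPM of at least 1, with the line of equal response in black. Interferon-induced antiviral and oligoadenylate synthetase genes (orange) and immediate early genes (green) lie mostly below the line, and most Paneth cell genes (blue) rose on both diets and lie near it.

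Interferon-induced genes were frequent among the negative values. Many of these genes are read from promoters that hold the interferon-stimulated response element, whose core is a pair of GAAA letters spaced by 2 bases. The windows below are from RefSeq on build GRCm38.p6 and are shown for genes whose values follow. Each is 80 bases of the strand of the gene, before its annotated start, and capitals mark matches to GAAANNGAAA or, on the other strand, TTTCNNTTTC.
Isg15, chr4:156200846-156200925, minus strand: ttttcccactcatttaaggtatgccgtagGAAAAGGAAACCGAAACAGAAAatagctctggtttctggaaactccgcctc
Ifit1, chr19:34640759-34640838, plus strand: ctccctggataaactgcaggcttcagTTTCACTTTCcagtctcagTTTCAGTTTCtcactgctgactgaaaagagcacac
Trim30a, chr7:104465194-104465273, minus strand: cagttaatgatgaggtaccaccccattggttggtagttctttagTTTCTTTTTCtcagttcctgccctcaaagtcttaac
Gbp7, chr3:142530248-142530327, plus strand: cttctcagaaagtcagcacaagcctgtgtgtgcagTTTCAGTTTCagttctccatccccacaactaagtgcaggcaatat
Irgm1, chr11:48871421-48871500, minus strand: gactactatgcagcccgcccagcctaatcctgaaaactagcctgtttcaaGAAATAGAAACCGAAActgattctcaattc
The 3 matches in Isg15 overlap one another, as do the 2 in Irgm1, while the 2 in Ifit1 are apart. Trim30a has 2 RefSeq windows, of which 1 is shown.

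The letters GAAANNGAAA on either strand occurred in 3.44% of 32851 RefSeq promoter windows, each from 250 bases before to 50 bases after a start. They occurred in 4.04% of the 11127 tested genes that had a window. Of the members with a window, the pair was found in 14 of 29 antiviral effectors (48.3%), 4 of 7 oligoadenylate synthetase genes (57.1%), 13 of 23 PYHIN, Schlafen, Ifitm and Phf11 genes (56.5%), 10 of 12 interferon gamma GTPases and chemokines (83.3%), 5 of 22 sensing and signalling genes (22.7%) and 4 of 16 MHC class I genes (25%). A match describes letters and does not show binding.

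Among antiviral effectors, 23 of 39 tested genes had a negative interaction at an unadjusted p under 0.05, and 1, Ifi27, a positive one. Over all genes tested these shares were 2.54% and 1.92%. The median interaction was -0.74, beside 0.0 over all genes tested. Irradiation lowered 9 of the 39 on the adequate diet and 37 on the supplemented diet, with median log2 changes of -0.50 and -1.34. It lowered 6.58% and 7.21% of all genes tested. In 29 of the 39 genes, all 4 supplemented 0 Gy libraries lay above all other 12 libraries, an arrangement found in 0.99% of all genes tested. The supplemented 0 Gy libraries enter the interaction, the response on the supplemented diet and the diet comparison at 0 Gy, so these 3 are not independent of one another.

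Trim30a, which restrains Toll-like receptor signalling, had the smallest unadjusted p of this list. It measured 42.2, 40.1, 55.8 and 42 CPM in the adequate 0 Gy libraries and 31.7, 30.3, 30.7 and 68.1 in the adequate 8.5 Gy libraries. It measured 140, 124, 115 and 102 CPM in the supplemented 0 Gy libraries and 45.5, 28.8, 30.1 and 39.2 in the supplemented 8.5 Gy libraries. The supplemented 0 Gy group did not overlap any other group, and the other 3 groups overlapped one another. Trim30a fell by 1.76 ± 0.24 (log2, SE) with irradiation on the supplemented diet (adjusted p = 0.000219), and its value on the adequate diet was -0.15 ± 0.24. The interaction was -1.61 ± 0.33, with a 95% interval from -2.32 to -0.90, an unadjusted p of 0.000174 and an adjusted p of 0.712. It was -1.22 without replicate 4 of the adequate 8.5 Gy group, the single high value there.

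Isg15, a ubiquitin-like modifier, measured 54.4, 49.1, 88.4 and 78.5 CPM at adequate 0 Gy and 28.1, 41.1, 29.9 and 41.6 at adequate 8.5 Gy. At supplemented 0 Gy it measured 282, 193, 171 and 156 CPM, and at supplemented 8.5 Gy 22, 25, 32 and 87.5. Replicate 4 of the last group was high, within the range of the unirradiated adequate libraries. The interaction was -1.30 ± 0.53 (unadjusted p = 0.0265) and became -1.95 without that library.

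Ifit1, which binds viral RNA lacking cap methylation, measured 179 to 211 CPM at adequate 0 Gy, 78.3 to 133 at adequate 8.5 Gy, 288 to 520 at supplemented 0 Gy and 82.7 to 233 at supplemented 8.5 Gy. It fell on both diets, by 1.01 ± 0.28 and by 1.64 ± 0.28, and its interaction of -0.63 ± 0.39 had an interval from -1.45 to 0.19. Mx1, a dynamin-like antiviral GTPase, had means of 8.23 ± 0.93 and 6.78 ± 1.29 CPM (SD, n = 4) on the adequate diet at 0 and 8.5 Gy, and 18.2 ± 6.0 and 5.65 ± 0.92 on the supplemented diet. Its interaction was -1.38 ± 0.32. Eif2ak2, the RNA-activated kinase PKR, had an interaction of -0.68 ± 0.20. Ifit3 and Ifit3b, near-identical neighbours whose reads could be split between them and whose values are therefore uncertain, had interactions of -1.39 ± 0.53 and -1.44 ± 0.42.

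In the oligoadenylate synthetase list, whose products activate RNase L, 5 of 10 tested genes had a negative interaction at an unadjusted p under 0.05 and none a positive one, with a median of -0.87. Oas2 measured 21.9, 26.1, 44.8 and 26.1 CPM at adequate 0 Gy and 7.07, 8.71, 9.73 and 33.7 at adequate 8.5 Gy. It measured 125, 110, 80.4 and 84.0 CPM at supplemented 0 Gy and 9.1, 10.1, 7.23 and 14.8 at supplemented 8.5 Gy. The interaction was -2.31 ± 0.60 (unadjusted p = 0.0017) with all libraries and -1.44 without replicate 4 of the adequate 8.5 Gy group, the single high value there. Without that library 2 of the 10 genes had an unadjusted p under 0.05. Oas1g and Oas1h, related copies with uncertain read assignment, had interactions of -0.91 ± 0.34 and -1.79 ± 0.67.

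Ifi44, another interferon-induced gene, depended most on that library among the antiviral genes named. Its mean CPM was 24.8 ± 10.2 (SD, n = 4) at adequate 0 Gy, 22.4 ± 35.9 at adequate 8.5 Gy, 163 ± 32.4 at supplemented 0 Gy and 12.6 ± 3.94 at supplemented 8.5 Gy, and replicate 4 alone measured 76.3 at adequate 8.5 Gy. The interaction was -3.69 ± 1.12 with it and -1.30 without it. The antiviral list had 14 negative genes at an unadjusted p under 0.05 without that library, 14 without replicate 2 of the adequate 0 Gy group, 14 without the 3 libraries under 4 M counts, and 31 of 39 without replicate 4 of both irradiated groups. Its median in the last setting was -0.86, and 1224 of the 16770 genes tested there were negative at that p.

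**Figure D2:**
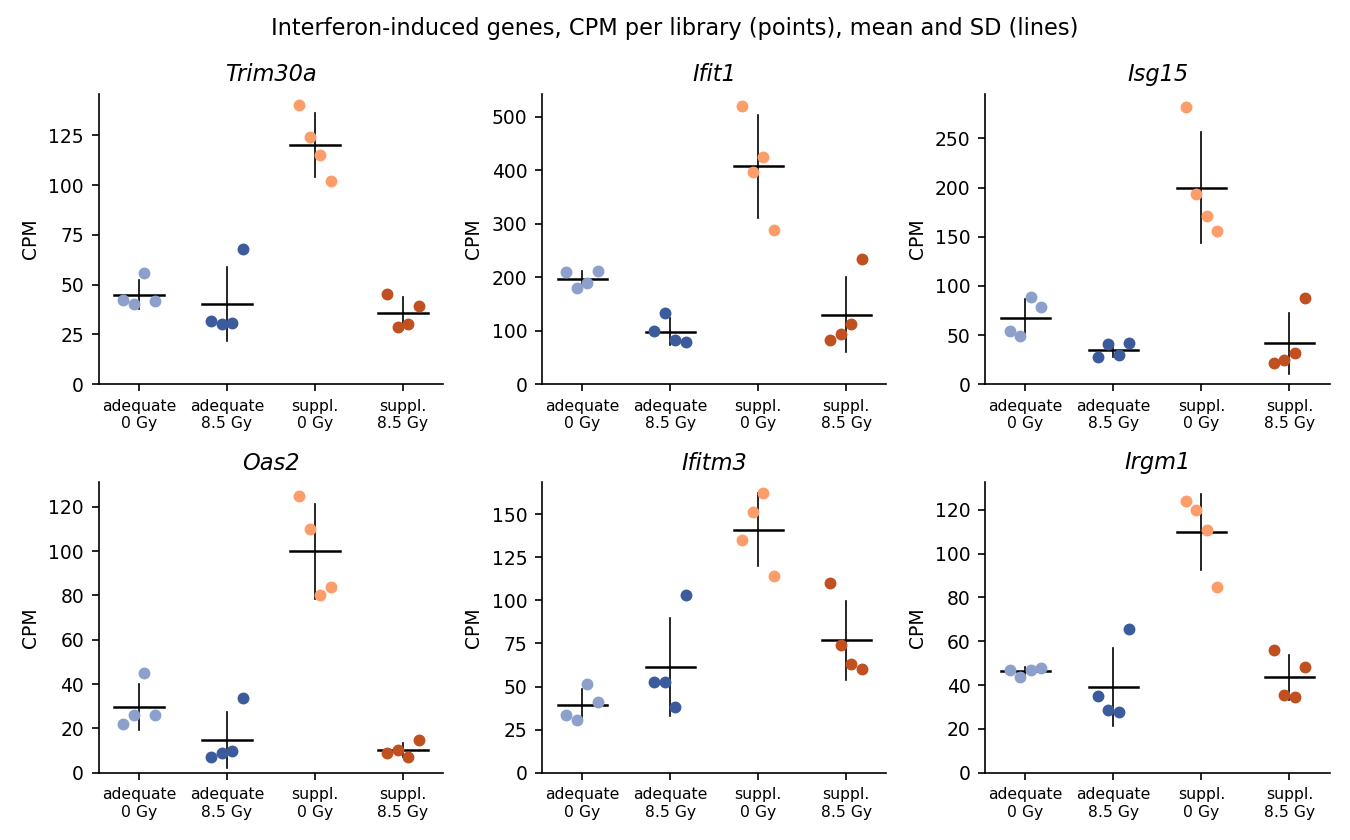
CPM of 6 interferon-induced genes in each library (points), by diet and dose, with the group mean and SD (lines, n = 4). In Trim30a, Isg15, Oas2, Ifit1, Ifitm3 and Irgm1 the 4 supplemented 0 Gy libraries sit above all others. Replicate 4 of the adequate 8.5 Gy group is the highest of its group in Trim30a, Oas2, Ifitm3 and Irgm1, and narrowly in Isg15 (41.6 against 41.1 CPM).

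Among PYHIN nucleic acid sensors, Schlafen, Ifitm and Phf11 genes, 9 of 24 tested had a negative interaction at an unadjusted p under 0.05 and none a positive one, with a median of -0.93. On the adequate diet, Ifi207, Ifitm1 and Ifitm2 rose with irradiation and Slfn2 and Phf11c fell, whereas on the supplemented diet Ifitm1 rose and 10 genes fell. Ifitm3, a membrane protein that blocks viral entry, measured 33.4, 30.7, 51.6 and 41.1 CPM at adequate 0 Gy and 52.5, 52.7, 38.0 and 103 at adequate 8.5 Gy. At supplemented 0 Gy it measured 135, 151, 162 and 114 CPM, above every other library, and at supplemented 8.5 Gy 110, 73.9, 63.1 and 60.4. Its interaction was -1.53 ± 0.38 and its unadjusted p 0.00101, and the interaction was -1.15 without replicate 4 of the adequate 8.5 Gy group. The DNA sensors Ifi202b and Ifi204, related copies whose read assignment is uncertain, had interactions of -1.85 ± 0.50 and -1.47 ± 0.40. Slfn5 and Phf11d had -1.53 ± 0.43 and -1.69 ± 0.49.

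Interferon gamma GTPases and chemokines gave 9 of 18 tested genes with a negative interaction at an unadjusted p under 0.05, none positive and a median of -0.85. On the adequate diet none fell and the chemokine Cxcl9 rose, and 7 fell on the supplemented diet. Irgm1, which regulates the immunity-related GTPases, measured 43.7 to 47.7 CPM at adequate 0 Gy, 27.8 to 65.5 at adequate 8.5 Gy, 84.9 to 124 at supplemented 0 Gy and 34.6 to 56.0 at supplemented 8.5 Gy. Its interaction was -1.13 ± 0.33, and -0.75 without replicate 4 of the adequate 8.5 Gy group, which held the 65.5. Gbp7, a guanylate-binding protein, and Igtp, an immunity-related GTPase, had interactions of -1.06 ± 0.28 and -1.13 ± 0.38. Without that library they were -0.72 and -0.74. The chemokine Cxcl10 had -0.97 ± 0.67, with an interval from -2.40 to 0.46. The count of 9 became 4 without replicate 4 of the adequate 8.5 Gy group, 5 without replicate 2 of the adequate 0 Gy group and 5 without replicate 2 of the supplemented 8.5 Gy group.

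Sensing and signalling genes gave 5 of 27 negative at an unadjusted p under 0.05 and none positive, with a median of -0.22. They included Irf7 and Stat2. Irf7, the transcription factor that amplifies interferon production, had an interaction of -0.82 ± 0.35, and Stat2, which carries the interferon signal to the nucleus, had -0.58 ± 0.20. This count lay between 1 and 8 over the alternatives, with the lowest value without the 3 libraries under 4 M counts and the highest without replicate 4 of both irradiated groups. MHC class I genes gave 3 of 20, namely Nlrc5, the transactivator of the class, at -1.36 ± 0.31, the peptide transporter Tap1 at -0.66 ± 0.29 and H2-T23 at -0.63 ± 0.29. Without replicate 4 of the adequate 8.5 Gy group, Nlrc5 was at -1.01 and Tap1 at -0.48. The count of 3 was 13 without replicate 4 of the supplemented 8.5 Gy group, and 1 without replicate 1 or 2 of the adequate 0 Gy group, replicate 1 of the supplemented 0 Gy group or replicate 2 or 3 of the supplemented 8.5 Gy group. Over all genes tested, the negative count rose from 420 to 718 without replicate 4 of the supplemented 8.5 Gy group. None of the 12 MHC class II genes had an unadjusted p under 0.05. Of these 12, 8 had an interval within 1 log2 unit of 0, beside 62% of all genes tested.

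Marker genes of immune cells were measured beside these results. The summed CPM of 11 dendritic cell markers was 163 to 193 at adequate 0 Gy and 103 to 183 at adequate 8.5 Gy. It was 222 to 275 at supplemented 0 Gy, the highest sums, and 138 to 157 at supplemented 8.5 Gy. Sums weigh abundant members most. The mean log2 CPM of the 11 overlapped between adequate 0 Gy (2.39 to 2.90) and supplemented 0 Gy (2.81 to 3.27). Their median diet difference at 0 Gy was 0.227, and none was called for it. One of the 11, Bst2, which interferon also induces, was higher in all supplemented 0 Gy libraries than in all other libraries, and Ccr7 was not tested. For 18 T cell markers the sums were 83.0 to 88.3, 78.1 to 95.4, 87.6 to 118 and 69.8 to 117 CPM in the same order, and the groups overlapped. For 17 macrophage, monocyte and neutrophil markers they were 264 to 334, 333 to 478, 289 to 414 and 425 to 573 CPM. None of these tested markers was at 0 throughout a group. The part of these cells in the interferon result was not tested.

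The diet comparison without irradiation, which uses 8 of the libraries, called 33 genes, 28 higher (0.169% of those tested) and 5 lower (0.0302%) on the supplemented diet. All 28 higher genes had a negative interaction. In 20 of the 28 the supplemented 0 Gy libraries lay above all other 12, beside 0.99% of all genes tested. Irradiation on the supplemented diet lowered 23 of the 28 (7.21% of all genes tested), and irradiation on the adequate diet lowered 5 (6.58%). These counts share the unirradiated libraries by which the 28 were picked. Picking high supplemented and low adequate 0 Gy values favours such counts, so they are not separate support. Members of the interferon and MHC lists made up 15 of the 28. The log2 differences of the 28 ran from 0.57 for Ascc3, a helicase, to 2.11 for Ifi202b. Those outside the lists were Ascc3, Gcnt3, the Paneth cell defensin Defa35, the exonuclease Trex1, which degrades cytosolic DNA, the nuclear body protein Sp100, the histone methyltransferase Setdb2, the mitochondrial RNA exonuclease Pnpt1, Ly6c1, Ehd4, Tut4, Tor3a, Spats2l and AW011738. The lower genes included the kinase Taok2, Safb and Rbm12b1, and 2 genes without a symbol. No gene was called when replicate 1 or 2 of the adequate 0 Gy group, replicate 1 of the supplemented 0 Gy group, or the 3 libraries under 4 M counts were left out, and DESeq2 called 226. Between the irradiated groups the diet comparison called no gene with edgeR (0.0%), with a smallest adjusted p of 0.486 and 871 genes at an unadjusted p under 0.05. DESeq2 called 11 there.

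Immediate early genes are transcribed within minutes of growth factor or stress signals. Of 21 tested, 11 had a negative interaction at an unadjusted p under 0.05, none a positive one, and the median was -1.0. All genes tested gave 2.54% negative and 1.92% positive. On the adequate diet Klf6 rose with irradiation (7.13% of all genes tested), and on the supplemented diet 6 fell (7.21%). In none of the 21 were the supplemented 0 Gy libraries all above the other 12. Zfp36, which promotes decay of cytokine mRNAs, measured 87.4, 94.8, 87.3 and 96.3 CPM at adequate 0 Gy and 85.6, 97.1, 104 and 65.8 at adequate 8.5 Gy. It measured 161, 78.9, 147 and 230 CPM at supplemented 0 Gy and 41.1, 56.1, 68.0 and 83.6 at supplemented 8.5 Gy, where replicate 2 of the unirradiated group was as low as the irradiated ones. The interaction was -1.25 ± 0.36 (unadjusted p = 0.00341).

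The transcription factor Egr1 varied widely among unirradiated libraries, with 5.75, 47, 9.38 and 16.9 CPM in the adequate group and 52.8, 16.2, 68.2 and 157 CPM in the supplemented group. After irradiation it measured 17.4 to 32.1 CPM on the adequate and 8.34 to 14.0 on the supplemented diet. The interaction was -2.68 ± 0.91, with an interval from -4.64 to -0.72. Atf3, a stress-induced repressor, had an interaction of -1.66 ± 0.51, and the nuclear receptor Nr4a1 had -1.98 ± 0.76. Without replicate 1 of the adequate 8.5 Gy group, which held 21.9 CPM of Atf3, the Atf3 interaction was -1.28. Without replicate 4 of the supplemented 0 Gy group, which held the highest Egr1 and Zfp36, 6 of the 21 genes had an unadjusted p under 0.05, and without the 3 libraries under 4 M counts 7 did.

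Ligands and a regulator of the epidermal growth factor receptor, chosen after their values were seen, differed in the order of their levels. Areg, an epithelial growth factor, measured 9.59, 8.65, 9.18 and 7.23 CPM at adequate 0 Gy and 16.8, 3.73, 5.22 and 6.0 at adequate 8.5 Gy. It measured 21.2, 17.1, 35.2 and 24.1 CPM at supplemented 0 Gy, above every other library, and 2.93, 5.91, 6.27 and 6.88 at supplemented 8.5 Gy. The interaction was -2.04 ± 0.51 (unadjusted p = 0.00104), and -1.37 without replicate 1 of the adequate 8.5 Gy group, the single high value there. Ereg, a second ligand, rose by 1.13 ± 0.33 on the adequate diet, measured 0.06 ± 0.30 on the supplemented diet, and had an interaction of -1.06 ± 0.45. Errfi1, an inhibitor of the receptor, had means of 25.1 ± 3.83 and 36.8 ± 10 CPM (SD, n = 4) on the adequate diet at 0 and 8.5 Gy and 32.3 ± 7.07 and 21.6 ± 4.23 on the supplemented diet, with an interaction of -1.14 ± 0.28 (unadjusted p = 0.000866). Ly6a, a marker of regenerating epithelium that interferon also induces, measured 7.67 to 18.6 CPM at adequate 0 Gy, 6.35 to 31.6 at adequate 8.5 Gy, 45.8 to 54.5 at supplemented 0 Gy and 11.0 to 18.8 at supplemented 8.5 Gy. Its interaction was -2.29 ± 0.59, and -1.40 without replicate 4 of the adequate 8.5 Gy group. Of the 15 tested genes of the regenerating epithelium list, Areg, Ly6a and Ereg had a negative and Msln a positive value at an unadjusted p under 0.05, and the median was 0.03.

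Inhbb, which encodes the beta B subunit of activins and inhibins, had the smallest unadjusted p of all genes tested, 6.6e-05. It measured 1.53, 1.32, 1.13 and 1.71 CPM at adequate 0 Gy and 2.75, 2.49, 3.38 and 3.66 at adequate 8.5 Gy, groups that did not overlap. On the supplemented diet it measured 2.41, 3.6, 2.7 and 2.64 CPM at 0 Gy and 2.64, 1.75, 1.79 and 1.45 at 8.5 Gy. It rose by 1.15 ± 0.25 on the adequate diet (adjusted p = 0.00621) and measured -0.64 ± 0.23 on the supplemented diet (adjusted p = 0.0748). The interaction was -1.79 ± 0.34, with an interval from -2.50 to -1.07, and ranged from -1.99 to -1.59 over the alternatives.

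**Figure D3:**
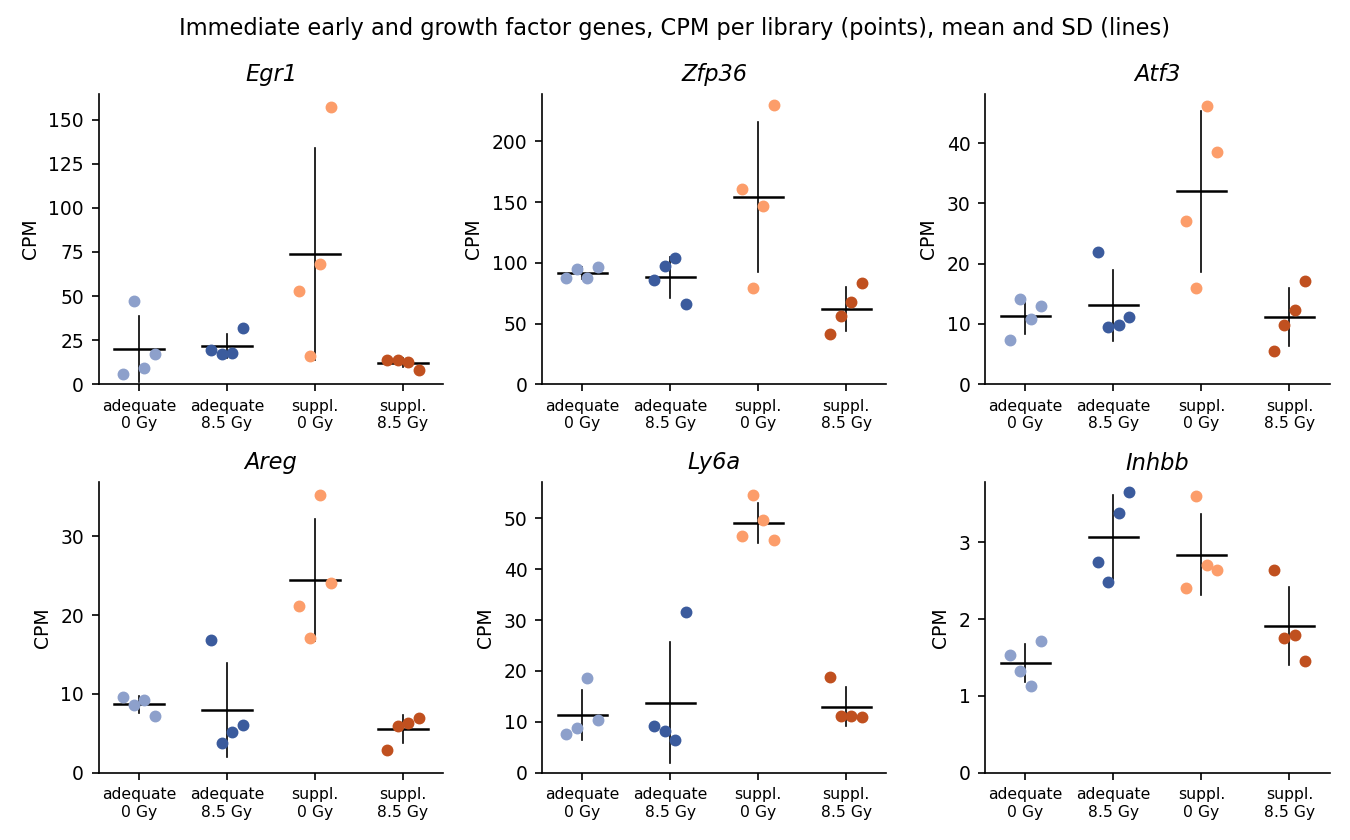
CPM per library (points) with group mean and SD (lines, n = 4) for the immediate early genes Egr1, Zfp36 and Atf3, the growth factor Areg, Ly6a and the activin subunit Inhbb. Supplemented 0 Gy libraries are spread widely in Egr1, from 16.2 to 157 CPM, and separate from all others in Areg and Ly6a, while in Inhbb the low group is adequate 0 Gy.

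Gcnt3, which makes branched O-glycans of mucins, was lowest in the adequate 0 Gy libraries. It measured 61.3, 55.0, 55.0 and 59.2 CPM at adequate 0 Gy, below the 85.3 to 118 CPM of all other 12 libraries. Irradiation raised it by 0.85 ± 0.11 on the adequate diet (adjusted p = 0.000223) and its value on the supplemented diet was 0.17 ± 0.11. Supplementation at 0 Gy raised it by 0.69 ± 0.11 (adjusted p = 0.0218), and the interaction was -0.68 ± 0.16 (unadjusted p = 0.000564).

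Most antimicrobial products of the crypt rose on both diets. Of 18 Paneth cell genes tested, 17 rose on the adequate and 16 on the supplemented diet, beside 7.13% and 8.03% of all genes tested. The median interaction was -0.10. The 3 with an unadjusted p under 0.05 were the alpha-defensins Defa35, Defa37 and Defa3, whose close copies make their counts uncertain. Defa35 measured 14.6, 16.3, 19.2 and 21.5 CPM at adequate 0 Gy and 336, 367, 426 and 368 at adequate 8.5 Gy. It measured 49.4, 26.8, 61.6 and 56.4 CPM at supplemented 0 Gy and 544, 436, 434 and 497 at supplemented 8.5 Gy. The fold with irradiation was thus from a lower start on the adequate diet, with log2 changes of 4.37 ± 0.23 and 3.30 ± 0.22 and an interaction of -1.07 ± 0.29. Lyz1, Paneth cell lysozyme, rose by 1.52 ± 0.21 and 1.90 ± 0.21, with an interaction of 0.38 ± 0.29 and an interval from -0.24 to 1.0. Mptx2, a pentraxin of Paneth cells, rose by 6.64 ± 0.48 and 6.29 ± 0.44. Defa3 was listed at 0 in 3 of the 4 adequate 0 Gy libraries, with 15.7 CPM in replicate 1, and in 1 of the 4 supplemented 0 Gy libraries, the other 3 having 67.3, 88.5 and 75.6 CPM. Its fitted interaction of -4.96 ± 1.88 rests on that replicate 1, without which the adequate 0 Gy group has no counts and no fold can be given.

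The bactericidal lectins Reg3b and Reg3g were the 2 of 15 antimicrobial lectin and acute-phase genes with an unadjusted p under 0.05. Reg3g measured 41.0, 29.6, 32.9 and 44.7 CPM at adequate 0 Gy and 55.3, 88.7, 138 and 90.4 at supplemented 0 Gy, with no overlap. After irradiation it measured 1080 to 2560 CPM on the adequate and 1430 to 2650 on the supplemented diet, which overlapped. It rose by 5.73 ± 0.36 and 4.47 ± 0.34, and the interaction was -1.26 ± 0.42 (unadjusted p = 0.00842). Reg3b had an interaction of -1.90 ± 0.55.

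Genes of methionine use, which the diet addresses most directly, gave no interaction at an unadjusted p under 0.05 among 26 tested genes of the methionine cycle and transsulfuration. The median was 0.03, and 18 of the 26 had an interval within 1 log2 unit of 0, beside 62% of all genes tested. Without replicate 4 of the adequate 8.5 Gy group, 2 of the 26 were positive at that p. Over all genes tested, 540 were positive in that fit and 318 with all libraries. Mat2a, which makes S-adenosylmethionine, measured 61.7 to 67.2 CPM at adequate 0 Gy, 73.0 to 83.4 at adequate 8.5 Gy, 74.8 to 93.6 at supplemented 0 Gy and 59.6 to 107 at supplemented 8.5 Gy. Its interaction of -0.28 ± 0.20 had an interval from -0.70 to 0.13. Cth, the last step of transsulfuration, fell on both diets, by 0.65 ± 0.12 and 0.41 ± 0.11, with an interaction of 0.24 ± 0.16. Cbs, the first step, had a mean of 0.28 to 1.24 CPM over the groups and a wide interval, from -0.63 to 3.04. Ahcy, which hydrolyses S-adenosylhomocysteine, had an interaction of 0.20 ± 0.57. Bhmt, which remethylates homocysteine with betaine, had too few counts to be tested.

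The 20 tested genes that write, erase or read DNA methylation likewise had none at an unadjusted p under 0.05 and a median of -0.01. Of these 20, 15 had an interval within 1 log2 unit of 0, beside 62% of all genes tested. Without replicate 4 of both irradiated groups, 3 were positive at that p, beside 921 of the 16770 genes tested there. The maintenance methyltransferase Dnmt1 had an interaction of 0.11 ± 0.25. The de novo methyltransferase Dnmt3a fell by 0.62 ± 0.12 on the adequate diet, measured -0.30 ± 0.11 on the supplemented diet, and had an interaction of 0.31 ± 0.16, with an interval from -0.03 to 0.66. Of 23 folate enzymes, Fpgs, which adds glutamates to folates, was negative at an unadjusted p under 0.05, with -0.66 ± 0.24, and Ggh, which removes them, was positive. Of 18 polyamine genes, the spermidine synthase Srm was the 1 below that p, with -0.74 ± 0.30. All genes tested gave 2.54% negative and 1.92% positive, so 1 member of such a list is near that share. Without replicate 4 of the supplemented 8.5 Gy group, 3 of the 18 were negative, beside 718 of all genes tested. Srm rose by 0.80 ± 0.22 on the adequate diet and measured 0.06 ± 0.21 on the supplemented diet. Setd7, a lysine methyltransferase, had an interaction of 0.57 ± 0.15 (unadjusted p = 0.00158).

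Genes of sugar and fat metabolism included positive values. Of 22 tested genes of fructose uptake, fructolysis and ChREBP, the carbohydrate-responsive transcription factor, 12 fell on the adequate diet, and 7 fell and Me1 rose on the supplemented diet. Of all genes tested, 6.58% fell on the adequate and 7.21% on the supplemented diet. The median interaction was 0.38, and 3 genes, Me1, Scd1 and Scd2, were positive at an unadjusted p under 0.05, beside 1.92% of all genes. The positive count was 7 without replicate 3 or without replicate 4 of the adequate 0 Gy group. It was 5 without replicate 4 of the adequate 8.5 Gy group and 1 without replicate 2 of the adequate 0 Gy group. Without replicate 4 of the supplemented 8.5 Gy group 6 genes were negative, beside 718 of all genes tested. Me1, the malic enzyme that supplies NADPH for lipid synthesis, measured 87.4, 80.9, 37.6 and 75.6 CPM at adequate 0 Gy and 75.2, 65.1, 70.1 and 29.7 at adequate 8.5 Gy. It measured 38.9, 33.2, 28.2 and 32.6 CPM at supplemented 0 Gy and 59, 78.3, 70.8 and 75.5 at supplemented 8.5 Gy, without overlap between those 2 groups. Me1 rose by 1.10 ± 0.27 on the supplemented diet, and its interaction was 1.33 ± 0.37 (unadjusted p = 0.00267). The desaturase Scd1 had 157 CPM in replicate 2 of the adequate 0 Gy group and 3.07 to 26.4 in the other 3, and its interaction went from 3.37 ± 1.31 to 1.5 without that library.

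Fructose genes themselves depended on replicate 4 of the supplemented 8.5 Gy group. Khk fell on both diets, by 1.61 ± 0.37 and 1.53 ± 0.37. Its interaction was 0.08 ± 0.51, with an interval from -1.0 to 1.16, and it was -0.59 without replicate 4 of both irradiated groups. The fructose transporter Slc2a5 had -0.06 ± 0.78. In that setting the median of the list was -0.12, with 5 negative and 4 positive genes at an unadjusted p under 0.05. Among all 16770 genes tested there, 1224 were negative and 921 positive. None of the 22 cholesterol synthesis genes had an unadjusted p under 0.05. Of these 22, 21 had an interval within 1 log2 unit of 0, beside 62% of all genes tested. Without replicate 4 of the adequate 8.5 Gy group, 2 were positive at that p, beside 540 of all genes tested.

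Of 32 p53 targets, 6 rose on the adequate and 8 on the supplemented diet, beside 7.13% and 8.03% of all genes tested. Dglucy fell on each diet, and the median interaction was -0.08. An unadjusted p under 0.05 was reached by 3 of them, beside 4.46% of all genes tested. They were the kinase Plk3, at -1.21 ± 0.38, the antiproliferative Btg2, at -1.16 ± 0.40, and the translesion polymerase Polk, at 0.69 ± 0.24. Without replicate 4 of the adequate 8.5 Gy group, 5 of the 32 were negative and 3 positive at that p. Without replicate 4 of both irradiated groups the counts were 6 and 3. All genes tested gave 530 negative and 540 positive in the first fit, and 1224 and 921 in the second. Both Plk3 and Btg2 are also induced as early response genes. Phlda3, a repressor of AKT signalling, rose by 1.68 ± 0.26 and 1.5 ± 0.24, while Cdkn1a, the p21 cell cycle inhibitor, had an interaction of -0.46 ± 0.43 and Mdm2, which degrades p53, had -0.37 ± 0.25.

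Among 19 crypt base stem cell genes, 17 goblet cell genes, 28 S phase genes, 26 genes of G2 and M phase and 28 enterocyte genes, none had an unadjusted p under 0.05. The intervals lay within 1 log2 unit of 0 for 14, 13, 20, 23 and 3 of them. The share was 62% over all genes tested and 71% at a mean log2 CPM of at least 1. Lgr5, the receptor that marks crypt base stem cells, rose by 1.04 ± 0.24 and 0.95 ± 0.24, with an interaction of -0.09 ± 0.34 and an interval from -0.80 to 0.62. Olfm4, a second marker, rose by 1.32 ± 0.23 and 1.28 ± 0.23. Mki67 had an interaction of -0.20 ± 0.37, which was 0.35 without replicate 4 of both irradiated groups. Without those libraries 12 of the 26 G2 and M phase genes and 5 of the 28 S phase genes were positive at an unadjusted p under 0.05, with medians of 0.47 and 0.30. In the same setting 8 of the 19 stem cell genes were positive, with a median of 0.40. Of the 28 enterocyte genes 14 were negative, with a median of -0.68, and 2 of the 17 goblet cell genes were negative. Among all 16770 genes tested in that setting, 921 were positive and 1224 negative at that p, 12.8% together.

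**Figure D4:**
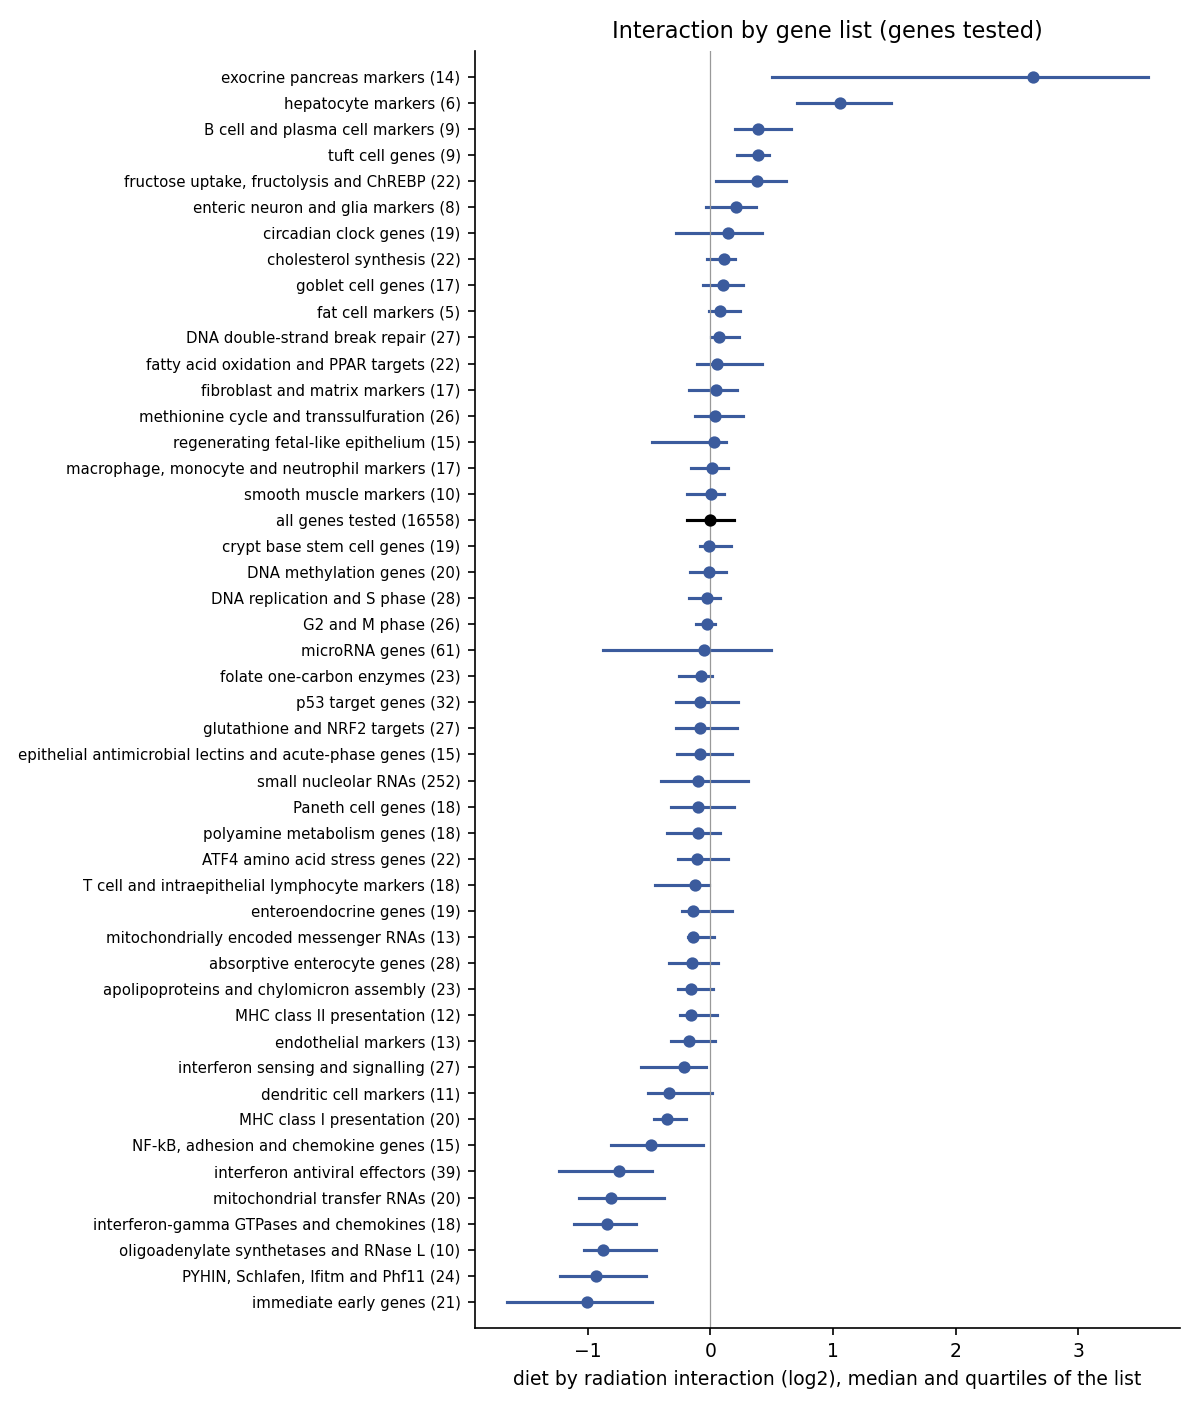
Median (point) and quartiles (line) of the log2 interaction for each gene list with at least 5 tested genes, 48 lines in all with all genes tested in black and the number of genes in brackets. Red blood cell markers are left out, since 1 member had no counts in a group. The lists at the negative end are the immediate early and interferon-induced lists and mitochondrial transfer RNAs, and the exocrine pancreas markers lie farthest on the positive side, at 2.63.

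Transcripts of the exocrine pancreas, which secretes digestive enzymes into the gut, gave positive values. Of 14 exocrine pancreas markers, 8 had a positive interaction at an unadjusted p under 0.05 and none a negative one. Over all genes tested these shares were 1.92% and 2.54%. On the supplemented diet 10 of them rose with irradiation, and on the adequate diet Clps, Pnliprp2 and Rnase1 rose and Cela2a fell. Levels were low. Ctrb1, chymotrypsinogen B, measured 1.53, 0.795, 7.84 and 2.47 CPM at adequate 0 Gy and 0.845, 0.415, 1.13 and 2.17 at adequate 8.5 Gy. It measured 0.837, 0.514, 0.0999 and 0.685 CPM at supplemented 0 Gy and 0.88, 3.02, 4.89 and 3.49 at supplemented 8.5 Gy. The interaction was 3.95 ± 0.95, and Cela2a and the lipase Pnlip had 3.56 ± 0.79 and 4.47 ± 1.04. Without replicate 3 of the adequate 0 Gy group, which held the 7.84 CPM of Ctrb1, these were 2.91, 3.03 and 3.72. In that fit 6 of the 14 markers were positive at an unadjusted p under 0.05, and their median went from 2.63 to 1.70. Pnlip measured 0 to 0.209 CPM at supplemented 0 Gy. The summed CPM of the 14 markers was 49.7 to 71.0 at adequate 0 Gy, 89.2 to 112 at adequate 8.5 Gy, 47.9 to 66.0 at supplemented 0 Gy and 122 to 154 at supplemented 8.5 Gy, and Prss1, Try5, Ctrl, Amy2a5 and Amy2b were not tested. Ctrb1, Cela2a and Pnlip, with group means of at most 3.16, 1.52 and 1.28 CPM, were a small part of these sums. Clps also stands in the Paneth cell list. The sum rose on the adequate diet although the median log2 change of the 14 was -0.41 there, beside 2.04 on the supplemented diet. The sums therefore do not follow most of the members. The part of pancreatic tissue or RNA in these values was not tested.

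Red blood cell transcripts fell strongly on both diets, in all 5 genes tested. Hba-a1, an alpha-globin gene, measured 47.5, 75.4, 82.5 and 56.8 CPM at adequate 0 Gy and 1.79, 2.49, 1.54 and 1.25 at adequate 8.5 Gy. It measured 36.0, 51.2, 59.1 and 22.2 CPM at supplemented 0 Gy and 2.64, 2.55, 5.17 and 1.65 at supplemented 8.5 Gy. The falls were 5.35 ± 0.40 and 3.75 ± 0.35, and the interaction was 1.61 ± 0.54 (unadjusted p = 0.00882). Hbb-bs, a beta-globin gene, had an interaction of 2.52 ± 0.99, and 1.24 without replicate 3 of the supplemented 8.5 Gy group. The part of blood content in any other result was not tested.

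**Figure D5:**
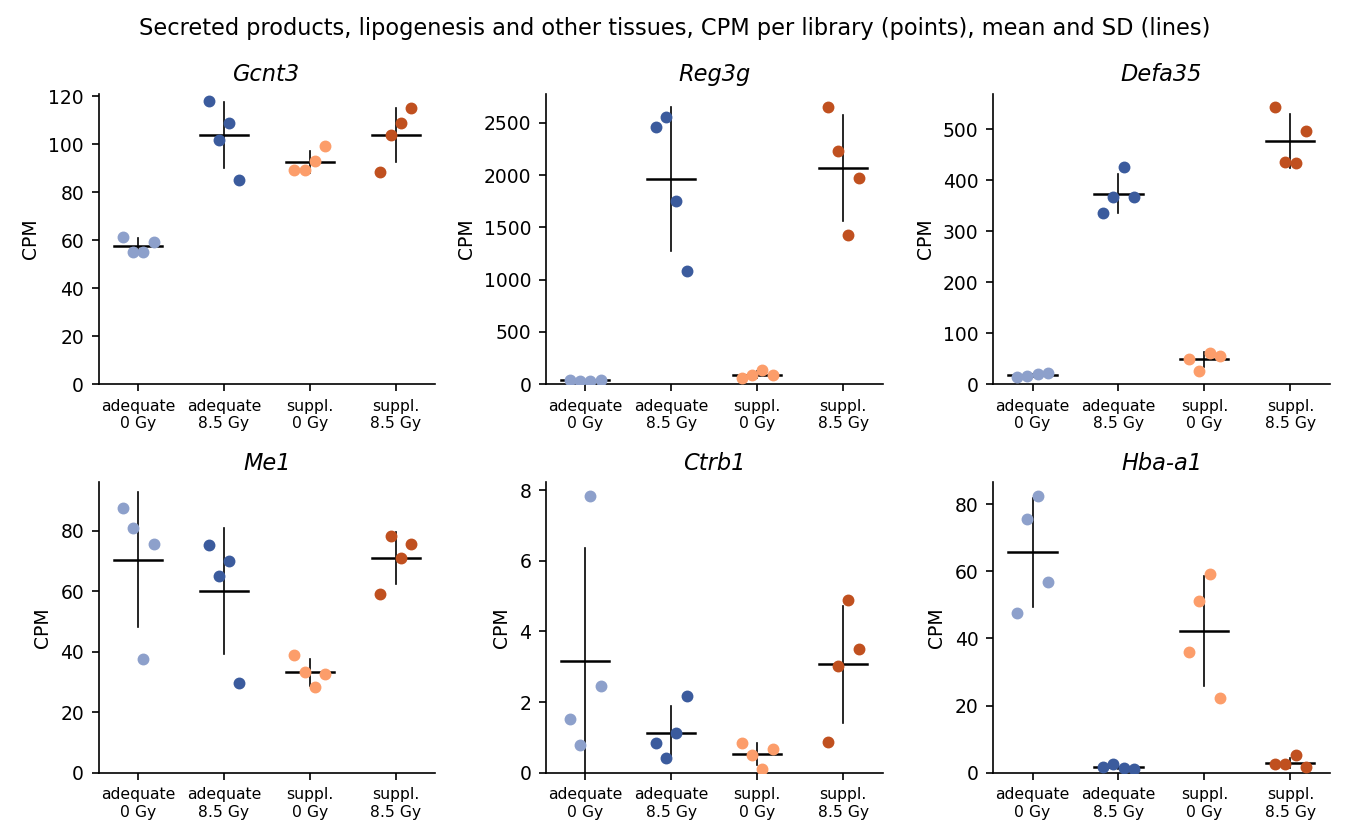
CPM per library (points) with group mean and SD (lines, n = 4, not drawn below 0) for Gcnt3, the lectin Reg3g, the defensin Defa35, the malic enzyme Me1, chymotrypsinogen Ctrb1 and alpha-globin Hba-a1. Reg3g and Defa35 were high after irradiation on both diets, Hba-a1 was low, and Me1 was lower in supplemented 0 Gy libraries, at 28.2 to 38.9 CPM, than in supplemented 8.5 Gy libraries.

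Among named genes with a mean log2 CPM of at least 1, leaving out predicted genes, gene segments of antigen receptors, small RNAs and pseudogenes, the 5 positive ones of smallest unadjusted p were Ctrb1, Fam168a at 0.61 ± 0.16, Zfp354a, a zinc finger gene, at 1.46 ± 0.38, Ninj1 and Setd7. Ninj1, which mediates rupture of the plasma membrane in dying cells, measured 5.36 to 5.52 CPM at adequate 0 Gy, 3.69 to 4.75 at adequate 8.5 Gy, 4.69 to 5.45 at supplemented 0 Gy and 6.11 to 7.04 at supplemented 8.5 Gy. Its interaction was 0.75 ± 0.20 (unadjusted p = 0.00155), and neither simple radiation change passed the test. The 5 negative ones by the same rule were Inhbb, Trim30a, Nlrc5, Mx1 and Gcnt3.

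Of 252 small nucleolar RNAs, which guide modification of ribosomal RNA, 129 rose on the adequate and 127 on the supplemented diet. Among all genes tested, 7.13% and 8.03% rose. Their median interaction was -0.10, with 18 negative and 4 positive at an unadjusted p under 0.05. Their share of all counts was 3.58% ± 0.48 (SD, n = 4) at adequate 0 Gy, 8.57% ± 1.51 at adequate 8.5 Gy, 4.04% ± 0.99 at supplemented 0 Gy and 11.3% ± 2.70 at supplemented 8.5 Gy. With 4 libraries against 4, an exact two-sided permutation test cannot go below p = 0.0286, the value for each radiation contrast, and the adjusted p over 12 such tests was 0.0572. Of 20 mitochondrial transfer RNAs, 7 were negative and none positive at an unadjusted p under 0.05, with a median of -0.81, and mt-Tl1, a leucine transfer RNA, had -1.10 ± 0.31. Of 61 microRNA genes, the predicted genes Gm25193 and Gm25736 were negative and Gm23365 and Gm23632 positive at that p, with a median of -0.06. These microRNA counts are near the 2.54% negative and 1.92% positive of all genes tested.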

How the data were processed

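RNA of the proximal jejunum was sequenced in 16 libraries in 4 groups of 4, taken from the labels. Ribo-Zero Gold served to remove ribosomal RNA, and fragmented RNA entered the TruSeq Small RNA protocol, per the labels' protocols. Bowtie2 2.2.9, RSEM 1.3.0, edgeR 3.2.4 and build NCBIM37 are named per the submitters' processing notes. The deposited values are RSEM expected counts per gene (estimated counts, unit per the file headers), of which 28.9% were not whole. RSEM divides reads among genes they fit, so values of near-identical genes are uncertain.

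Counts were rounded, filtered with filterByExpr of edgeR 4.0.16 (R 4.3.3), scaled by TMM and fitted with 1 mean per group over all 16 libraries by the robust quasi-likelihood method. P-values are two-sided, with Benjamini-Hochberg adjustment over 16558 genes, and a gene is called at an adjusted p under 0.05. Log2 values are given ± SE from the F statistic, and intervals are 95%. Of 37620 gene IDs, 32897 had a symbol in GENCODE M21, a later build used for names and types alone, and IDs without one held 4.4 to 8.41% of counts. Promoter windows are from RefSeq (GRCm38.p6). The method was tested on simulated data.

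Alternatives were DESeq2 1.42.0, limma 3.58.1 voom, other scalings, filters and dispersions, and fits leaving out libraries. Since no gene was called, the named genes were the 5 of smallest p in each direction (mean log2 CPM of at least 1, without unnamed or predicted genes, antigen receptor segments, small RNAs and pseudogenes), preset genes of the pathways, the 3 of smallest p in lists with at least 3 members at an unadjusted p under 0.05, and the genes called for diet at 0 Gy. The plan named list members only in lists with called genes. The list rule on the unadjusted p replaced it because no gene was called, so it was not preset. Ifi44, Nr4a1, Errfi1, Hba-a1, Lars2, mt-Tl1, Mzb1, Srm, Fpgs, Ahcy, Cth, Dnmt3a, Phlda3, Olfm4, Mptx2, Insig1 and all other genes named were chosen after their values were seen. The members and lists were chosen with earlier results of these data known, so lists are described by counts and medians beside those of all genes.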

Additional observations from a re-analysis of the deposited data

Results flagged for a closer look

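Single libraries lay far from the other 3 of their group in 28 of the group values of the genes named, each being the highest of its group. The measure is the gap to the nearest library divided by the range of the group, and chance alone passes its limit in about 1 in 20 groups. The 28 is not set against that rate, since values of different genes in a library are not independent. Replicate 4 of the adequate 8.5 Gy group held 7 of them, with 68.1 CPM of Trim30a, 33.7 of Oas2, 76.3 of Ifi44, 63.4 of Gbp7, 31.6 of Ly6a, 32.1 of Egr1 and 89.6 of Dnmt1. Replicate 4 of the supplemented 8.5 Gy group held 87.5 CPM of Isg15, 222 of Khk, 570 of Slc2a5 and 301 of H2-T23. Replicate 3 of the adequate 0 Gy group held 55.8 CPM of Trim30a, 247 of Irf7, 93.8 of Oas1g and 47.8 of Mdm2. Replicate 4 of that group held 5.52 CPM of Ninj1 and 8.66 of Cxcl10, its replicate 1 held 15.7 of Defa3, and its replicate 2 held 157 of Scd1. In the remaining adequate 8.5 Gy libraries, replicate 2 held 8.71 CPM of Mx1 and replicate 1 held 21.9 of Atf3. In the supplemented 0 Gy group, replicate 2 held 4.42 CPM of Oas1h, replicate 4 held 22.7 of Scd2 and replicate 3 held 9680 of Lars2. In the supplemented 8.5 Gy group, replicate 2 held 0.94 CPM of Oas1h, replicate 1 held 98.9 of Defa37 and 18.8 of Ly6a, and replicate 3 held 738 of Olfm4. What sets these libraries apart was not tested.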

How the results depend on the processing

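The count of 0 genes called for the interaction held in the settings run except DESeq2, with 2, and the fit without replicate 4 of the supplemented 8.5 Gy group, also with 2. Leaving out 1 library at a time gave 0 to 2 genes for the interaction, 1231 to 2478 for radiation on the adequate diet, 1434 to 3627 for radiation on the supplemented diet, 0 to 49 for diet at 0 Gy, 0 to 1 for diet at 8.5 Gy, and 624 to 1168 genes at an unadjusted interaction p under 0.05. DESeq2 called 226 genes for diet at 0 Gy and 11 at 8.5 Gy. Without the 3 libraries under 4 M counts, 1438 genes were called for radiation on the adequate diet and 0 for diet at 0 Gy, and the interaction was 0.22 for Slc2a5, -0.07 for Dnmt1 and -0.13 for Ahcy. Without replicate 4 of both irradiated groups, a setting chosen after seeing the data, 4328 genes were called for radiation on the supplemented diet, 233 for diet at 0 Gy and 2 at 8.5 Gy, and 2145 had an unadjusted interaction p under 0.05. There the interaction was -0.59 for Khk, -0.58 for Apoa4, 0.35 for Mki67, 0.30 for Lgr5, 0.13 for Phlda3 and 0.36 for Olfm4. With voom it was -0.18 for Khk and 0.07 for Olfm4. Leave-one-out ranges of genes that changed sign were -0.71 to 0.30 for Khk, -1.30 to 0.26 for Slc2a5, -0.30 to 0.57 for Apoa4, -0.37 to 0.18 for Mki67, -0.32 to 0.17 for Lgr5, -0.04 to 0.43 for Ahcy, -0.19 to 0.30 for Olfm4 and -0.98 to 0.01 for Mptx2. Of 76 genes followed, 66 kept their sign in the settings run. Most of the 76 were picked by a small interaction p or after their values were seen. Such picking favours a kept sign, so this count is not a measure of stability. The cause of the differences between settings was not tested. No paired analysis was possible because the replicate numbers follow the order of deposition and the labels pair no libraries. With 4 libraries a group, depths from 2.57 M counts and the SEs above, differences under 1 log2 unit were often not detectable. Larger interactions also did not pass edgeR's test after adjustment, such as -1.79 ± 0.34 for Inhbb (adjusted p = 0.596) and 4.47 ± 1.04 for Pnlip (adjusted p = 0.712). Pnlip was near the floor, with at most 0.209 CPM in any supplemented 0 Gy library.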

Other observations

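Mitochondrial ribosomal RNA had lower mean shares on the supplemented diet at both doses. It was 4.68% ± 0.83 (SD, n = 4) of counts at adequate 0 Gy, 5.46% ± 1.27 at adequate 8.5 Gy, 2.17% ± 0.40 at supplemented 0 Gy and 2.19% ± 0.70 at supplemented 8.5 Gy. Its diet differences had an adjusted p of 0.0572 over 12 exact two-sided permutation tests, with an unadjusted p of 0.0286, the smallest that 4 libraries against 4 allow. Lars2, the gene of the mitochondrial leucyl-tRNA synthetase, was kept in the same list as the mitochondrial ribosomal RNAs. Its group means were 19200 and 11000 CPM on the adequate diet at 0 and 8.5 Gy, and 4190 and 6730 on the supplemented diet. How reads were divided between Lars2 and those RNAs was not tested, so its values are not read as synthetase expression. Its interaction was 1.49 ± 0.69, and 2.32 without replicate 3 of the supplemented 0 Gy group. Its diet differences were -2.2 ± 0.50 at 0 Gy (adjusted p = 0.0863) and -0.70 ± 0.48 at 8.5 Gy (adjusted p = 0.945). None of these was called. Mzb1, a chaperone of plasma cells, fell by 1.81 ± 0.33 with irradiation on the adequate diet, measured -0.80 ± 0.32 on the supplemented diet, and had an interaction of 1.01 ± 0.46. Insig1, which retains SREBP precursors in the endoplasmic reticulum, fell on both diets, by 2.2 ± 0.33 and 1.57 ± 0.32, with an interaction of 0.63 ± 0.45.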
